A study of Mus musculus with 8 samples.

Results

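The nicotinic acetylcholine receptor of skeletal muscle and the proteins that gather it under the nerve were examined through 10 mouse genes, out of 24980 gene symbols in the deposited count table. The genes were chosen by name and function, with earlier results of these data known. They are the receptor subunits Chrna1 (α), Chrnb1 (β), Chrnd (δ), Chrng (fetal γ) and Chrne (adult ε), the agrin receptor Lrp4, the muscle-specific kinase Musk, its adaptor Dok7, the receptor-clustering protein Rapsn and the acetylcholinesterase anchor Colq. RNA was sequenced from 8 libraries, 2 biological replicates in each of 4 groups of mouse skeletal myogenic cells. TF cells were myogenic progenitors isolated fresh from teratomas that mouse embryonic stem cells had formed, and TE cells were teratoma-derived progenitors expanded to passage 8. SF cells were satellite cells, which are the resident stem cells of muscle, isolated fresh. SE cells were satellite cells expanded to passage 8 in the same myogenic expansion medium. The study describes both SF and SE as adult satellite cells. In the study, teratomas grew from EGFP-labelled embryonic stem cells in irradiated, cardiotoxin-injured tibialis anterior muscles of NSG-mdx4Cv mice, and progenitors were sorted as cells without CD31 (Pecam1) and CD45 (Ptprc) and bearing α7-integrin and VCAM-1. The sequenced groups carried no other treatment in the labels, no strain or age was given for them there, and the labels did not state whether replicates came from separate animals or cultures, so the p-values measure the spread between these libraries.

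At the neuromuscular junction, motor nerves release agrin, which binds Lrp4 on the muscle surface. Lrp4 then activates Musk, Dok7 relays and strengthens that activity inside the cell, and rapsyn, the product of Rapsn, ties receptors into dense clusters. The receptor is a ring of α, β and δ subunits with either γ, the form of fetal and denervated muscle, or ε, the form of innervated adult muscle. Colq is the collagen-like tail that holds acetylcholinesterase in the synaptic basal lamina. Myogenic factors of the MyoD family bind E-boxes in the regulatory regions of several of these genes, and genes expressed under the synapse can also carry an N-box, which binds ETS-family factors such as GABP.

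The genes lay on 6 chromosomes of GRCm38 in the GENCODE M21 annotation. Chrnd (chr1:87190607-87200070, plus strand) and Chrng (chr1:87204657-87212694, plus strand) were neighbours with 4586 bases between them. Chrna1 (chr2:73563215-73580338, minus strand), Rapsn (chr2:91035620-91045729, plus strand) and Lrp4 (chr2:91457511-91513779, plus strand) shared chromosome 2. Chrnb1 (chr11:69784036-69795943, minus strand) and Chrne (chr11:70614883-70619216, minus strand) shared chromosome 11. Musk was at chr4:58285960-58374303 on the plus strand, Dok7 at chr5:35056766-35087839 on the plus strand and Colq at chr14:31523082-31591343 on the minus strand. Chrne shared 1043 bases with 4930544D05Rik on the opposite strand, Rapsn shared 1638 bases with Gm13778 on the opposite strand, and Colq shared 38439 bases with Gm49387 and 302 bases with Gm24057, both on its own strand. Of these, 4930544D05Rik was the one present in the count table, with 7 counts in SF replicate 1 and 0 in the other libraries, and the use of strand in the counting was not stated, so reads of Chrne, Rapsn and Colq could include reads of their neighbours.

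The 250 bases before the transcription start are shown for the α subunit, which had the largest per-length share of receptor RNA in expanded cells, and for the γ and ε subunits, which replace one another in the receptor. They were read from RefSeq promoter entries on GRCm38.p6, which matched 6 of the 10 genes, and are printed 5′ to 3′ on the gene's own strand. Capitals mark the E-box letters CANNTG and the N-box letters CCGGAA. The windows are chr2:73580339-73580588 on the minus strand for Chrna1, chr1:87205561-87205810 on the plus strand for Chrng and chr11:70619195-70619444 on the minus strand for Chrne. The Chrng window lay inside the GENCODE gene, downstream of its annotated start.
Chrna1: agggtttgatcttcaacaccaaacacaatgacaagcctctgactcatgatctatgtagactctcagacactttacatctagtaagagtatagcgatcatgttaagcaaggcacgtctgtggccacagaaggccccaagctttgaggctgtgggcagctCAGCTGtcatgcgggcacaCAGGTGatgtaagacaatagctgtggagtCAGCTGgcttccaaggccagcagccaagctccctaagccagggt
Chrng: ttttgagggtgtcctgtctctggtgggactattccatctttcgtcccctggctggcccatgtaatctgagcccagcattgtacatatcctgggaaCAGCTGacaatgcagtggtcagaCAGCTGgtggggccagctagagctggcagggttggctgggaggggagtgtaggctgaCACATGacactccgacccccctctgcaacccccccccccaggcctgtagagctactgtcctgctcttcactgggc
Chrne: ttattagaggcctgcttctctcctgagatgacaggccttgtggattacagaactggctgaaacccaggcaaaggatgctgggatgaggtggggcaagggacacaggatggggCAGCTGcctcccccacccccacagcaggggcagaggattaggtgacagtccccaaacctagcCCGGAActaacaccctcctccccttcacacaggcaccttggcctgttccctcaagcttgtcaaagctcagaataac

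Both strands were searched, and CAGCTG is one of the forms of CANNTG. The Chrna1 and Chrng windows each held 3 CANNTG matches, 2 of them CAGCTG. In Chrna1 these 2 began at −92 and −44 bases from the start, with a CAGGTG at −73, and in Chrng they began at −155 and −132. Of 32851 RefSeq promoter windows of this length, 66.2% held CANNTG, 13.0% held CAGCTG and 1.26% held CAGCTG at least 2 times. The Chrne window held 1 CAGCTG, at −138, and 1 CCGGAA, at −76, a match found in 12.03% of windows. The Musk window held 3 CANNTG matches with 1 CAGCTG, the Chrnb1 window held 3 with none of that form, and the upstream one of the 2 Dok7 windows held 1. These are matches of letters, and binding was not measured.

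Receptor and organizer RNA was a small part of every library and was larger in expanded cells. The 10 genes together took 0.0228% and 0.0257% of the estimated counts in the TF libraries, 0.101% and 0.108% in TE, 0.0304% and 0.0330% in SF, and 0.190% and 0.206% in SE. Levels are given below as CPM (counts scaled to a common library size) after correction by the trimmed mean of M-values (TMM). Total counts ranged from 11931000 to 21146600 per library, so 3 counts, the limit that a count of 0 allows, corresponded to between 0.141 and 0.252 CPM, counting error only. All 10 genes passed the filter on low counts, although Chrne reached 10 counts in 3 libraries alone, both of SE and 1 of SF. Replicates of a group differed by more than sampling noise, least in TE (chi-square per degree of freedom 11.7) and most in SE (87.2). The 7 myogenic identity genes (Pax7, Itga7, Vcam1, Myf5, Myod1, Cdh15 and Des) were detected in every library, with a summed level between 1303 and 3335 CPM, which does not show how pure the cells were. In TF replicate 1 they summed to 1303 CPM, below the 1467 CPM of 4 fibro-adipogenic genes, among them Dcn at 875 CPM. In bulk RNA, fewer cells expressing a gene and less RNA per cell cannot be told apart.

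The α subunit Chrna1, which forms the acetylcholine binding sites with its neighbours, was the most abundant subunit RNA in both expanded groups. Chrna1 stood at 54.4 and 65.2 CPM in TF, 447 and 464 in TE, 31.0 and 30.1 in SF, and 1004 and 871 in SE. Both expanded groups were thus far above both fresh groups, and no library of a group reached the range of the next group in the order SE, TE, TF, SF. The δ subunit Chrnd followed this order from a lower base, at 5.13 and 3.75 CPM in TF, 79.5 and 85.7 in TE, 2.40 and 0.808 in SF, and 174 and 183 in SE, again without overlap.

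The fetal subunit Chrng had the largest ratio of highest to lowest group mean among the 10 genes. Its level was 5.80 and 2.87 CPM in TF, 51.8 and 53.0 in TE, 2.03 and 0 in SF, and 184 and 312 in SE. The groups kept the order of Chrna1 and Chrnd without overlap, SF replicate 2 held no Chrng count, and the SE replicates differed by 1.69 times. The β subunit Chrnb1 behaved differently, with 44.1 and 59.0 CPM in TF against 111 and 120 in TE, 97.2 and 136 in SF, and 124 and 125 in SE. Only TF stood apart for Chrnb1, while the SE and SF ranges overlapped, as did those of SF and TE.

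The adult subunit Chrne was close to the limit of detection. It had 5 and 0 counts in TF, 1 and 1 in TE, 14 and 3 in SF, and 23 and 19 in SE, which corresponded to between 0 and 1.09 CPM. SE was above the other groups without overlap, though SF replicate 1 came close at 1.02 CPM, and the ranges of SF and TF and of TF and TE overlapped. The ratio of SE to TE, corrected for library size, was 21.2 with an exact 95% interval of 5.52 to 181 that covers counting error only. On the same terms the ratio was 5.30 (2.10 to 17.2) for SE to TF and 1.83 (1.02 to 3.42) for SE to SF. Chrne was not called in any of these comparisons in the tests given below.

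Among the organizers, Lrp4 ranked the groups as Chrna1, Chrnd and Chrng did. The agrin receptor was at 44.3 and 46.1 CPM in TF, 110 and 105 in TE, 34.7 and 27.7 in SF, and 224 and 252 in SE, in the order SE, TE, TF, SF without overlap. Musk, the kinase that Lrp4 activates, was instead higher in both satellite groups than in both teratoma-derived groups. It stood at 40.2 and 35.3 CPM in TF, 61.3 and 62.5 in TE, 122 and 151 in SF, and 98.8 and 151 in SE, with the SF and SE ranges overlapping.

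The adaptor Dok7 and the clustering protein Rapsn were highest in TE. Dok7 was at 3.78 and 5.11 CPM in TF, 57.1 and 65.1 in TE, 0.945 and 1.82 in SF, and 40.5 and 48.3 in SE. Rapsn was at 29.8 and 28.2 CPM in TF, 60.4 and 68.4 in TE, 16.4 and 26.0 in SF, and 45.9 and 58.2 in SE. Both genes ranked TE, SE, TF, SF with no overlap between neighbours, although the gap between TE and SE did not pass the test given below. Colq was low throughout, at 0.841 and 3.99 CPM in TF, 3.38 and 3.53 in TE, 0.727 and 0.472 in SF, and 1.51 and 5.72 in SE, and its replicates in SE differed by 3.79 times.

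**Figure D1:**
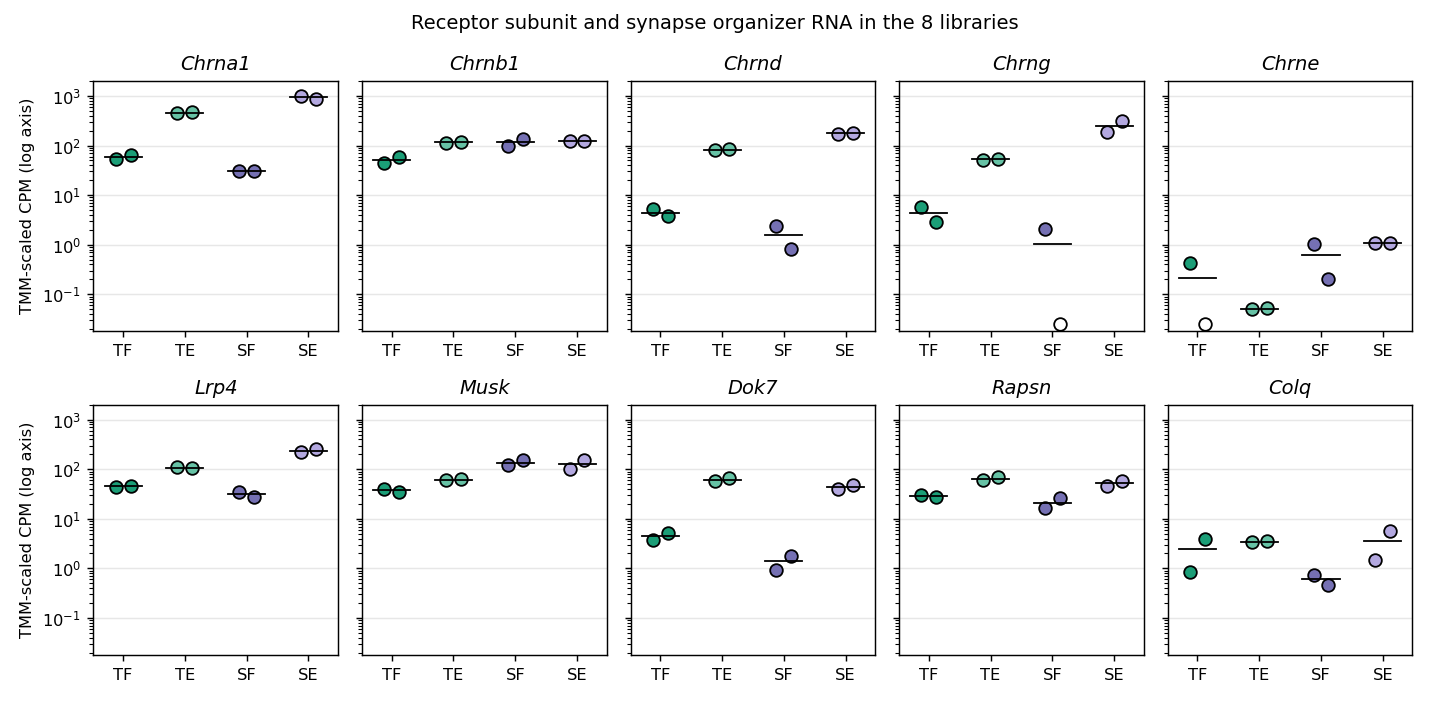
TMM-scaled CPM (log axis) of the 10 genes in the 2 libraries of each group, with the bar at the group mean and an open circle at the bottom of the axis for a library with 0 counts. Chrna1, Chrnd, Chrng, Dok7 and Lrp4 sit higher in both expanded groups than in both fresh groups, whereas Musk is highest in SF and SE and Chrne stays at or below 1.09 CPM.

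Per kilobase of transcript, the balance among receptor subunits differed between fresh and expanded cells. Each subunit's CPM was divided by the length of its longest principal transcript, and the 5 values of a library were expressed as percentages of their sum. Chrnb1 made up 55.3% and 61.5% of this sum in TF and 83.0% and 89.7% in SF, against 25.9% and 26.5% in TE and 14.0% and 13.4% in SE. Chrna1 made up 33.6% and 33.3% in TF and 13.0% and 9.72% in SF, against 51.1% and 50.5% in TE and 55.5% and 46.0% in SE. On the same per-length scale, α exceeded β by 1.98 and 1.91 times in TE and by 3.97 and 3.43 times in SE, while α was below β in every fresh library. The δ share lay between 13.6% and 14.5% in the 4 expanded libraries and between 0.391% and 4.75% in the 4 fresh ones. The γ share was 9.35% and 9.09% in TE and 16.1% and 26.0% in SE, and was at most 5.65% in a fresh library. These are shares of RNA and were not tested.

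**Figure D2:**
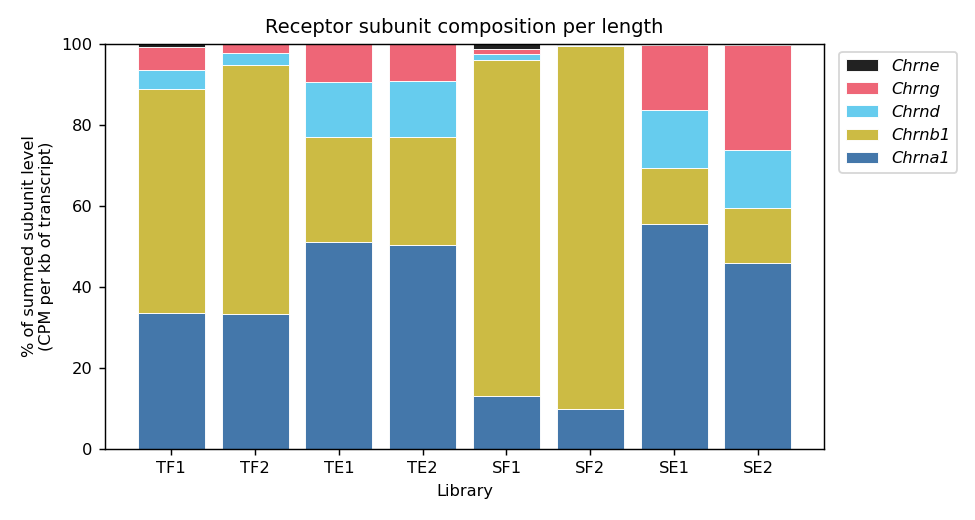
Share of each receptor subunit (%) in the summed CPM per kilobase of transcript of the 5 subunits, with 1 stacked bar per library. Chrnb1 takes more than 55% of the bar in all 4 fresh libraries and less than 27% in all 4 expanded libraries, where Chrna1, Chrnd and Chrng take the remainder and Chrne is almost invisible.

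Counts of γ exceeded those of ε in 7 of 8 libraries. Of the γ plus ε counts, γ made up 93.2% (69 of 74, exact 95% interval 84.9% to 97.8%) and 100% (36 of 36, 90.3% to 100%) in TF, and 99.9% in both TE libraries. It made up 99.4% and 99.7% in SE, of 3933 and 5480 counts. In SF the 2 libraries were apart, with γ at 66.7% (28 of 42, 50.5% to 80.4%) and 0% (0 of 3, 0% to 70.8%), so the SF share rested on 28 γ and 17 ε counts. Corrected for transcript length, γ was 53.4% in SF replicate 1, so neither form clearly prevailed there. That library also held 7 counts of 4930544D05Rik, which overlaps Chrne on the opposite strand. Intervals are exact binomial ones and cover counting error only.

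Expansion of the teratoma-derived cells (TE against TF) went with higher RNA of most of the 10 genes. With edgeR's quasi-likelihood test, 8 of 10 were higher at a Benjamini-Hochberg adjusted p below 0.05 and past the study's fold threshold, and none was lower, where 9.86% of all 17582 tested genes were called higher and 16.2% lower. The largest increases were those of Chrnd (18.6-fold, log2 4.22 ± 0.36 standard error, adjusted p = 4.37e-05), Dok7 (13.7-fold, 3.78 ± 0.34, 5.75e-05), Chrng (12.1-fold, 3.60 ± 0.69, 0.00457) and Chrna1 (7.61-fold, 2.93 ± 0.20, 1.09e-05). Smaller increases were found for Lrp4 (2.37-fold, adjusted p = 0.00107), Chrnb1 (2.24-fold, 1.16 ± 0.22, 0.00448) and Rapsn (2.22-fold, 1.15 ± 0.26, 0.0108). Musk was just past the threshold (1.64-fold, 0.71 ± 0.23, 0.0490). Colq (log2 0.51 ± 1.07, adjusted p = 0.759) and Chrne (−1.88 ± 2.26, 0.571) were not called. The median over the 10 genes was a log2 change of 1.20, against −0.18 over all tested genes. The Musk call was lost when any one of the 4 libraries was left out, with log2 changes between 0.66 and 0.83, and Rapsn was not called without TF replicate 2 (1.15) or TE replicate 2 (1.09). Without TF replicate 1 the log2 change of Chrng was 4.21, and DESeq2 gave it 3.54 without a call.

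Expansion of satellite cells (SE against SF) went with higher RNA of 6 of the 10 genes and lower RNA of none, against 20.9% called higher and 19.8% lower among all tested genes, a balance that turned to more lower calls under median-ratio scaling (43.6% of calls higher). Chrng rose 248-fold (log2 7.96 ± 0.86, adjusted p = 9.54e-05), Chrnd 112-fold (6.80 ± 0.42, 4.94e-06), Dok7 31.8-fold (4.99 ± 0.37, 1.21e-05) and Chrna1 30.7-fold (4.94 ± 0.22, 1.26e-06). Lrp4 rose 7.64-fold (2.93 ± 0.20, 6.83e-06) and Rapsn 2.45-fold (1.29 ± 0.27, 0.00383). Chrnb1 (0.09 ± 0.22, adjusted p = 0.757) and Musk (−0.13 ± 0.23, 0.672) were not called, nor were Chrne (0.83 ± 2.06, 0.764) and Colq (2.58 ± 1.15, 0.0998). The median over the 10 genes was 2.76 on the log2 scale, against −0.23 over all tested genes. The 6 calls held when each library was left out in turn, but the sizes for Chrng and Chrnd rested on SF. Without SF replicate 1 the log2 change of Chrnd was 7.77, and since the remaining SF library had no Chrng count, Chrng was at least 1230-fold higher in SE than a floor of 3 counts in that library. Without SF replicate 2 the log2 change of Chrng was 6.95. By counts alone, the SE to SF ratio of Chrng was 247 (exact 95% interval 171 to 373, counting error only).

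**Figure D3:**
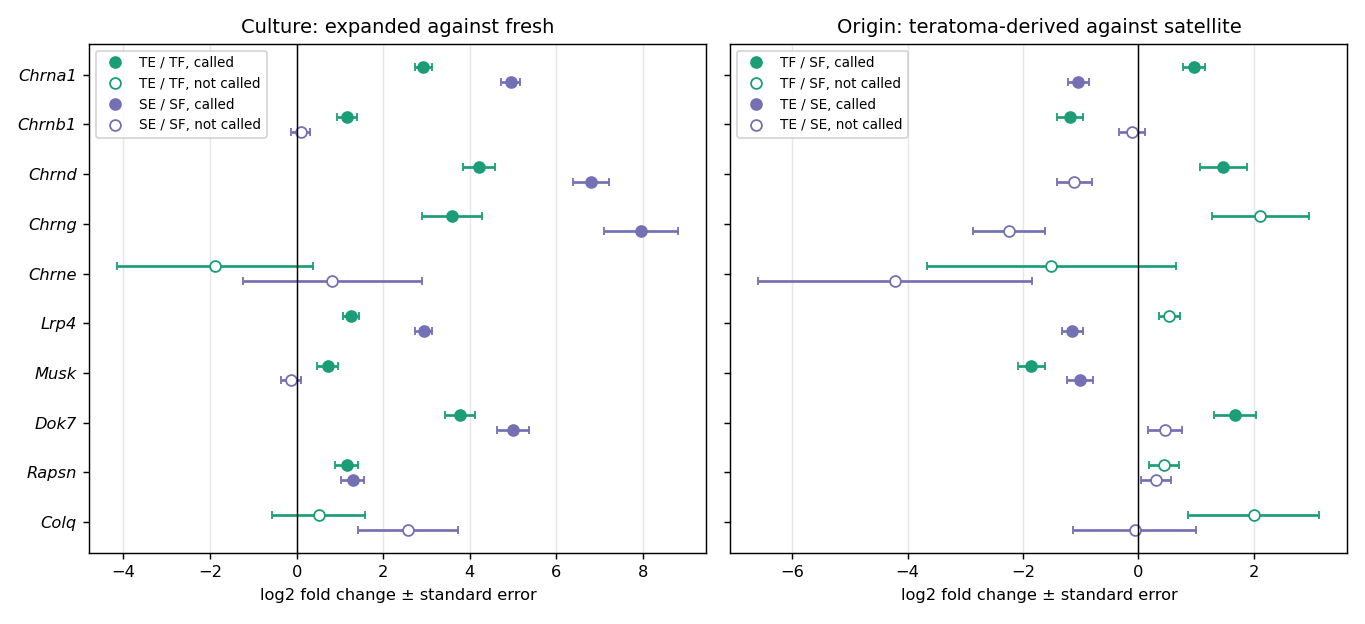
Log2 fold change ± standard error of the 10 genes, for expanded against fresh cells (left) and teratoma-derived against satellite cells (right), with filled points for genes that passed the adjusted p and fold thresholds. The increases of Chrna1, Chrnd, Chrng and Lrp4 are larger from SF to SE than from TF to TE, Chrnb1 and Musk sit near 0 from SF to SE, and Chrne has the widest error in each comparison.

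The change with expansion differed between the cell origins for 5 of the 10 genes, by the interaction term (TE − TF) − (SE − SF), where 14.3% of all tested genes were called (4.7% higher and 9.62% lower). Chrna1 rose less in teratoma-derived cells by 2.01 on the log2 scale (± 0.26, adjusted p = 0.00140), Lrp4 by 1.69 (± 0.26, 0.00309), Chrnd by 2.59 (± 0.51, 0.00908) and Chrng by 4.36 (± 1.03, 0.0215). Chrnb1 went the other way, with an interaction of 1.07 (± 0.31, 0.0485). Chrna1, Lrp4 and Chrnd remained called under all 13 alternative settings. The Chrnb1 call was lost without each of 7 libraries, all but SF replicate 1, with values between 0.79 and 1.31. Chrng rested on the SF libraries, since its interaction was −3.34 without SF replicate 2 and −11.40 without SF replicate 1, the latter a fitted value against a library at 0 that depends on the prior count, and DESeq2 gave −4.18 without a call. Without SF replicate 1 the interaction of Chrnd was −3.53. Dok7 (−1.21 ± 0.47, adjusted p = 0.119), Musk (0.84 ± 0.33, 0.122), Rapsn (−0.14 ± 0.37, 0.885), Colq (−2.06 ± 1.55, 0.432) and Chrne (−2.71 ± 3.03, 0.625) were not called. Dok7 was called without SF replicate 2 (−1.78), and Musk was called without SE replicate 2 (1.17) and by DESeq2 (0.98). For Chrna1, Chrnd and Chrng the SF mean lay below the TF mean and the SE mean above the TE mean, and of these 3 genes Chrna1 passed the tests of both differences given below.

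Between the expanded groups (TE against SE), 3 of the 10 genes were lower in TE and none was higher, where 4.07% of all tested genes were called lower and 3.15% higher. These were the agrin receptor Lrp4 (2.22-fold lower, log2 −1.15 ± 0.18, adjusted p = 0.00569), Chrna1 (2.06-fold lower, −1.04 ± 0.18, 0.00895) and the kinase Musk (2.02-fold lower, −1.01 ± 0.23, 0.0296). Chrnd (−1.11 ± 0.31, adjusted p = 0.0639) and Chrng (−2.24 ± 0.62, 0.0612) had differences of like or greater size that did not pass. Chrnb1 (−0.11 ± 0.22, 0.882), Rapsn (0.31 ± 0.26, 0.586), Dok7 (0.46 ± 0.30, 0.449), Colq (−0.06 ± 1.06, adjusted p = 1) and Chrne (−4.22 ± 2.38, 0.379) were not called. Without either TE library no gene of the 10 was called, with Chrna1 at −1.004 and −1.06, Lrp4 at −1.17 and −1.11 and Musk at −0.99 and −1.02, and Musk was not called without SE replicate 2 (−0.67). Leaving out TE replicate 1 or 2 also lowered the share of all genes called, to 3.42% and 3.36%. Of the 10 genes, 5 had an unadjusted p below 0.05 in the full fit, as did 19.8% of all tested genes, and DESeq2 called 4, beside 9.22% of all genes. Chrng was called without SE replicate 1 (−2.57). In a fit of the 2 groups alone Chrnd and Chrng gained a call and Musk lost its call (adjusted p = 0.0577), which gave 4 of 10 beside 7.15% of all genes, and without the filter on low counts Chrnd and Chrng gained a call, which gave 5 of 10 beside 9.82%. Musk also missed the threshold in a test against the fold threshold itself (adjusted p = 0.0623).

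Between the fresh groups (TF against SF), 3 of the 10 genes were higher in TF and 2 were lower, where 15.1% of all tested genes were called higher and 9.13% lower. Dok7 (3.19-fold, log2 1.67 ± 0.36, adjusted p = 0.00970), Chrnd (2.79-fold, 1.48 ± 0.40, 0.0253) and Chrna1 (1.96-fold, 0.97 ± 0.19, 0.00578) were higher in TF. Musk was 3.61-fold lower in TF (−1.85 ± 0.24, 0.000786) and Chrnb1 2.27-fold lower (−1.18 ± 0.22, 0.00528). Chrng (2.12 ± 0.84, adjusted p = 0.0973), Lrp4 (0.54 ± 0.19, 0.0634), Rapsn (0.45 ± 0.26, 0.252), Colq (2.00 ± 1.14, 0.237) and Chrne (−1.51 ± 2.15, 0.665) were not called. The Musk call held without each library in turn. Chrna1 was not called without TF replicate 2 (0.83), Chrnb1 without TF replicate 1 (−0.98), Chrnd without TF replicate 1 (1.247) or SF replicate 2 (0.90), and Dok7 without TF replicate 2 (1.43) or SF replicate 1 (1.27). Without SF replicate 1 the log2 difference of Chrnd was 2.43, and Chrng was at least 21.5-fold higher in TF than a floor of 3 counts in the remaining SF library. In a fit of TF and SF alone, 3 of the 10 genes were called, near the 21.1% of all genes called in that fit.

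Fresh teratoma-derived cells against expanded satellite cells (TF against SE) gave 8 of 10 genes lower in TF, all but Colq and Chrne, where 9.16% of all tested genes were lower. The differences ranged from 57.3-fold lower for Chrng (log2 −5.84 ± 0.75, adjusted p = 0.000469) to 1.80-fold lower for Rapsn (−0.85 ± 0.26, 0.0434). Rapsn lost its call without either TF library (−0.90 and −0.83) or without SE replicate 2 (−0.67), and Chrng stood at −6.44 without TF replicate 1. This comparison shares its SE libraries with TE against SE and its TF libraries with TE against TF.

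The 10 genes were set in a wider list of 82 genes of the synapse and its regulation, of which 78 were tested. In TE against TF 13 were higher and 18 lower (39.7% called), and in SE against SF 24 were higher and 19 lower (55.1% called), beside 26.1% and 40.7% of all tested genes called in either direction. The median log2 changes of −0.06 and 0.13 lay nearer 0 than those of the 10 genes. TE against SE gave 5 higher and 4 lower, beside 7.21% called among all tested genes.

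Among 23 genes of agrin and neuregulin signaling, 5 were higher and 2 lower in TE than in TF, and 11 were higher and 1 lower in SE than in SF. These were 30.4% and 52.2% of the list, beside 26.1% and 40.7% of all tested genes called in either direction. The neuregulin receptor Erbb3 rose in both (log2 3.02 ± 0.51, adjusted p = 0.00217, and 3.86 ± 0.54, 0.000414), as did the Src-family kinase Fyn (1.45 ± 0.21, 0.000770, and 1.38 ± 0.21, 0.000641) and Dnaja3, a co-chaperone that binds Musk (1.34 ± 0.20, 0.00115, and 1.48 ± 0.20, 0.000388). The SE replicates were unequal for Erbb3, at 61.6 and 178 CPM. Agrn, which encodes agrin itself, was at 206 and 176 CPM in TF, 106 and 97.5 in TE, 53.1 and 46.5 in SF, and 63.8 and 65.2 in SE. It was higher in TF than in SF (log2 1.94 ± 0.18, adjusted p = 0.000210) and lower in TE than in TF (−0.91 ± 0.18, 0.00509), and its interaction was −1.28 (± 0.25, 0.00954).

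The postsynaptic scaffold held 3 higher and 2 lower of 11 genes in TE against TF and 5 higher and 3 lower in SE against SF. These were 45.5% and 72.7% of the list, beside 26.1% and 40.7% of all tested genes called in either direction. Macf1, which links microtubules to rapsyn, rose in both (log2 1.29 ± 0.22, adjusted p = 0.00215, and 1.38 ± 0.22, 0.000884). Utrn, the dystrophin relative at the synapse, had an interaction of 1.65 (± 0.26, 0.00352), with 374 and 375 CPM in TF, 629 and 614 in TE, 803 and 897 in SF and 490 and 406 in SE. The synaptic basal lamina list fell in both origins, with 7 of 9 lower and 1 higher in each, led by the laminin chain Lama4 (−7.15 ± 0.25, adjusted p = 1.09e-06 in TE against TF, and −6.77 ± 0.26, 1.26e-06 in SE against SF). Of all tested genes 16.2% and 19.8% were called lower in TE against TF and SE against SF. Markers of other cell types were also lower in the expanded libraries, as given below, and their part in the fall of this list was not tested. None of 8 other tested nicotinic subunits was called higher in either comparison, beside 9.86% and 20.9% of all tested genes. These subunits were low, at most 15.8 CPM in any library, and 8 genes are too few to set apart from those shares. Chrna7, the homomeric α7 subunit, was lower in TE than in TF (−5.36 ± 1.16, adjusted p = 0.00825). Of 4 genes listed with acetylcholinesterase (Ache, Bche, Prima1 and Col13a1), none was called in TE against TF. Col13a1, a transmembrane collagen of the synapse, was higher in SE than in SF (2.35 ± 0.71, 0.0243). Bche, which encodes butyrylcholinesterase, was lower there, with 0 counts in both SE libraries. Ache, the enzyme that Colq anchors, was at 0.841 and 0 CPM in TF, 4.59 and 3.89 in TE, 3.85 and 3.84 in SF, and 6.03 and 5.60 in SE, and was not called in either comparison. Of 9 genes of glycosylation and receptor assembly, 2 were lower and none higher in TE against TF, and 2 were higher and none lower in SE against SF, among them Alg2, a mannosyltransferase of N-glycan synthesis (3.84 ± 0.51, adjusted p = 0.000323). The called share of this list was 22.2% in each comparison, below that of all tested genes.

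Of 14 tested regulators of synaptic genes, 4 were higher and 4 lower in TE against TF and 4 higher and 6 lower in SE against SF. These were 57.1% and 71.4% of the list, beside 26.1% and 40.7% of all tested genes called in either direction. Myog, an E-box binding factor of differentiating myoblasts, was at 86.0 and 94.0 CPM in TF, 753 and 797 in TE, 0.509 and 0.875 in SF, and 263 and 900 in SE. It rose in both origins (log2 3.11 ± 0.48, adjusted p = 0.00124, and 9.69 ± 0.69, 9.28e-06), its interaction was −6.58 (± 0.77, 0.000832), and TE and SE were not called apart (0.41 ± 0.44, 0.690). Myod1, of the same family, was at 41.3 and 60.3 CPM in TF, 325 and 324 in TE, 386 and 522 in SF, and 692 and 713 in SE, and was lower in TE than in SE (−1.11 ± 0.23, 0.0190). Other members of the family went the other way. Myf5 was at 52.0 and 88.5 CPM in TF, 9.68 and 4.31 in TE, 84.5 and 102 in SF, and 5.00 and 7.83 in SE. It was lower in TE than in TF (log2 −3.33 ± 0.43, adjusted p = 0.000450). Myf6, at most 9.84 CPM in any library, was also lower there (−6.63 ± 1.69, 0.0177).

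A list of 25 terminal differentiation genes, such as myosin, troponin and fusion genes, was also higher in both expanded groups than in both fresh groups, as were Chrna1, Chrnd and Chrng, while Chrnb1 and Chrne did not share this order. Its summed level was 3586 and 2206 CPM in TF, 17276 and 16870 in TE, 727 and 475 in SF, and 18813 and 37455 in SE. In TE against TF 19 of the 25 were higher and none lower, and in SE against SF 22 were higher and 1 lower. Among all tested genes 9.86% and 20.9% were called higher in these comparisons. TE against SE gave 1 higher and 3 lower, beside 7.21% of all tested genes called. The interaction gave 16 lower and none higher, beside 9.62% of all tested genes called lower. The SE replicates were apart on this list and on Myog, which was 3.42 times higher in replicate 2, and also on Colq (3.79), Chrng (1.69) and Musk (1.53), whereas Chrna1 (0.868), Chrnb1 (1.004), Chrnd (1.05), Lrp4 (1.12), Dok7 (1.19) and Rapsn (1.27) differed less between them. The part of differentiation in the differences above was not tested.

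**Figure D4:**
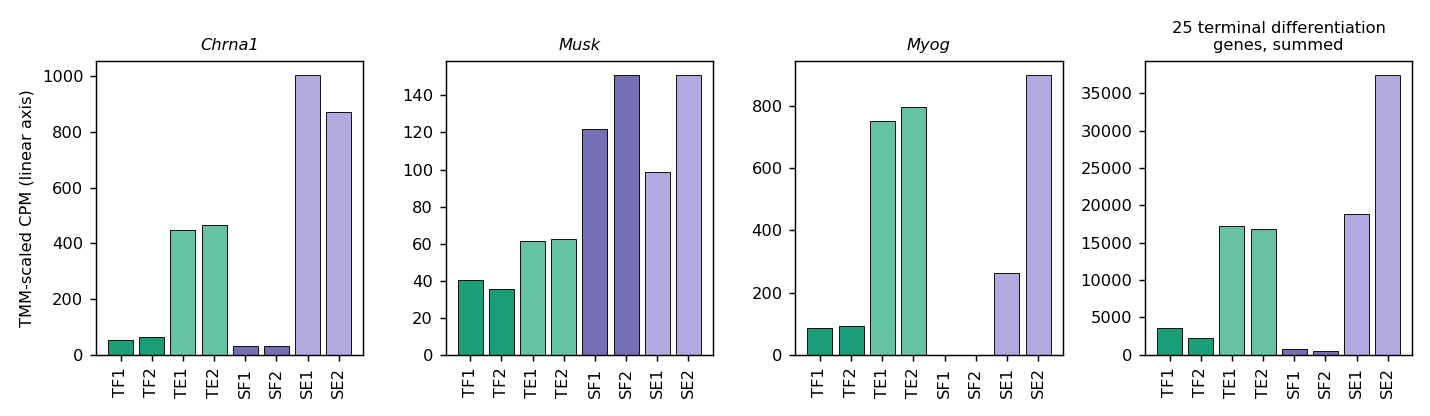
TMM-scaled CPM (linear axes from 0) of Chrna1, Musk, Myog and the sum of 25 terminal differentiation genes in each library. The SE replicates are at 1004 and 871 for Chrna1, 98.8 and 151 for Musk, 263 and 900 for Myog, and 18813 and 37455 for the sum. In SF, Musk is at 122 and 151, and Myog and the sum are at their lowest. The part of differentiation in these levels was not tested.

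Markers of other cell types were higher in the fresh libraries. Fibro-adipogenic genes (4 genes) summed to 1467 and 1391 CPM in TF and 684 and 1187 in SF, against 1.45 to 6.92 in the expanded libraries. Endothelial genes (5) summed to between 67.0 and 344 CPM in fresh and 0.467 and 2.22 in expanded libraries, pericyte and smooth muscle genes (4) to between 565 and 807 against 63.4 and 130, and haematopoietic genes (4) to between 16.9 and 160 against 0.756 and 6.29. No gene of these 4 lists was at 0 in any fresh library, and endothelial and haematopoietic lists had 2 to 4 genes at 0 in each expanded library, Kdr, Emcn, Ptprc and Adgre1 in all 4. The TF replicates were unequal on the endothelial (228 and 67.0 CPM) and haematopoietic (160 and 20.3 CPM) lists. Schwann cell genes (5), relevant to RNA of the nerve terminal, summed to 68.6 and 58.7 CPM in SF, 12.02 and 12.11 in TF and 2.29 to 4.55 in expanded libraries. Neuronal genes (11) summed to between 18.2 and 97.9 CPM with no such split, but single genes of the list differed between groups. Slc18a3 was at 0 in 7 libraries. Chat was at 16.6 and 7.57 CPM in SF and at most 2.44 elsewhere, and Isl1 at 19.1 and 27.0 in TF and at most 3.53 elsewhere. Stmn2 was highest in TE (80.6 and 66.9 CPM), and Nefl reached 59.3 CPM in SE replicate 1. The sort on CD31 and CD45, stated for the teratoma-derived cells, would remove endothelial and haematopoietic cells, and Pecam1 was at 55.0 and 5.50 CPM and Ptprc at 50.04 and 6.38 CPM in the TF libraries. The part of these cells in the levels of the 10 genes and of the wider lists was not tested.

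The genes most like the receptor subunits in pattern were sought among 12711 genes by Pearson correlation, over the 8 libraries, with the mean standardized log2 level of Chrna1, Chrnb1, Chrnd and Chrng. The subunits themselves correlated with that mean at 0.972 for Chrna1, 0.969 for Chrnd, 0.944 for Chrng and 0.642 for Chrnb1. The closest other genes were Eno3 (0.995), the muscle form of enolase, Prpf6 (0.991), a splicing factor, Zfp322a (0.991), Kansl2 (0.989) and Prep (0.988). Eno3 was at 12.1 and 14.0 CPM in TF, 147 and 140 in TE, 11.8 and 12.4 in SF and 240 and 270 in SE. The 8 points fall into expanded and fresh libraries, so these values describe the pattern and were not tested.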

How the data were processed

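RNA from 8 libraries was prepared with a stranded total RNA kit for low input and sequenced from both ends. Per the labels, kallisto 0.44.0, CASAVA and GRCm38 (mm10) were used in processing, and the step from transcripts to genes and the use of strand were not given in the sources used here. The authors deposited 1 table of estimated counts per gene symbol, not normalized, of which between 74.4% and 84.4% of a library's values were whole. The estimated counts were rounded here, filtered with filterByExpr (17582 of 24980 symbols kept), scaled by TMM and tested with edgeR 4.0.16 (R 4.3.3) quasi-likelihood tests in 1 fit of 4 groups, with Benjamini-Hochberg adjustment over all tested genes. Calls needed an adjusted p below 0.05 and a fold change above 1.25, the study's thresholds. The common dispersion was 0.233. Because group n is 2, errors are wide: on simulated counts for TE against SE (16870 genes), 29% of log2 changes of 1.25 and 81% of log2 changes of 3 were called, with 9 false among 119 calls. Changes were set in TE alone, in 100 genes of each size above a minimum mean count, and all groups otherwise shared 1 mean. In the data 7.21% of genes were called in TE against SE, so these rates may differ from those of the real calls. Alternatives were median-ratio size factors, no low-count filter, DESeq2 1.42.0, a fit of the 2 groups compared, the replicate number as a block, a test against that fold threshold and leaving out each library.

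Standard errors of log2 changes come from the F statistic. Levels per kilobase used GENCODE M21 transcript lengths, and promoters came from RefSeq. The 10 genes and all lists were chosen with earlier results of these data known. The genes named beyond the 10 were Myog, at most 3 called genes with the lowest adjusted p per list and comparison, and the 5 genes closest in pattern with a mean of at least 50 scaled counts. Ache, Bche, Myf5, Myf6, Chat, Isl1, Stmn2, Nefl and values of Myod1 and Eno3 by library were added after they had been seen.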

Additional observations from a re-analysis of the deposited data

Results flagged for a closer look

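Expansion moved 5 of the 10 genes by different amounts in the teratoma-derived and the satellite cells, by edgeR's interaction term (TE − TF) − (SE − SF). Among all tested genes 14.3% were called for this term. Chrng was not called by DESeq2, and Chrnb1 was not called in the test against the fold threshold. The values were −2.01 for Chrna1 (adjusted p = 0.00140), −1.69 for Lrp4 (0.00309), −2.59 for Chrnd (0.00908), −4.36 for Chrng (0.0215) and 1.07 for Chrnb1 (0.0485) on the log2 scale, with 2 libraries in each group. The increase was larger in satellite cells for the first 4, with fresh satellite cells at the lowest level of the 4 groups. For Chrnb1 the teratoma-derived cells alone rose, from the lowest level of the 4 groups in TF. These are differences on a ratio scale, and SF levels of 1.60 CPM for Chrnd and 1.02 CPM for Chrng (means, n = 2) enter them.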

How the results depend on the processing

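Over all alternatives, 628 values of the 10 genes were compared with the reported ones: 561 kept direction and side of the threshold, 41 lost a call, 11 gained one and 15 changed sign. With one library left out at a time, the log2 difference spanned 0 for Chrnb1 (−0.13 to 0.38) and Musk (−0.45 to 0.16) in SE against SF, for Rapsn in the interaction (−0.53 to 0.18), for Colq in TE against SE (−0.72 to 1.19), TE against TF (−0.18 to 2.06) and TF against SE (−2.12 to 0.67), and for Chrne in TE against TF (−2.84 to 3.002), TF against SF (−6.36 to 0.0281) and the interaction (−4.24 to 2.14). Chrnb1 in SE against SF was −0.0977 under median-ratio scaling and −0.0972 by the DESeq2 test, whereas Colq in TE against SE was 0.21 with a replicate block. None of these was called, and the cause was not tested.

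Of the 10 genes, 5 were called in TE against SE without the filter on low counts, where the share of all genes called was 9.82%, and 3 in TF against SF with only the groups compared, where it was 21.1%. Of the 78 wider genes, TE against SE called 16 with DESeq2, 6 with a replicate block and 5 in the test against the fold threshold, beside 9.22%, 6.85% and 5.46% of all genes. With one library left out, the 10 genes gave 0 to 4 calls in TE against SE and 3 to 5 in TF against SF, and the wider genes gave 3 to 13 in TE against SE, 16 to 23 in TF against SF and 10 to 24 in the interaction. The lowest counts came without a TE library in TE against SE and the interaction, and without a TF library in TF against SF. The γ share ranged over 0% to 66.7% in SF and 93.2% to 100% in TF. Median-ratio size factors moved the median log2 difference of all genes from −0.23 to −0.43 in SE against SF, from 0.08 to −0.08 in TF against SF and from −0.18 to −0.04 in the interaction, and the share of calls that were higher from 62.3% to 52.1% in TF against SF, from 32.8% to 42.1% in the interaction and from 51.4% to 43.6% in SE against SF (40.1% by DESeq2), where the balance turned.

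By replicate number, correlations of deviations between groups lay between −0.0228 and 0.0261. The labels do not state whether samples were paired, and these correlations, with 2 libraries a group, cannot decide it. With a replicate block, Musk in TE against TF (log2 0.71) lost its call and no other call of the 10 genes changed. For the interaction, a fit of only the groups compared could not be made. Chrne and Colq had at most 23 and 100 counts per library.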
